A study of Mus musculus with 31 samples.

Results

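Nova1 and 9 related genes for RNA-binding proteins of neurons were followed across the basolateral amygdala (BLA) of 31 mice. They were the Nova genes Nova1 and Nova2, the Rbfox genes Rbfox1, Rbfox2 and Rbfox3, the neuronal Elavl genes Elavl2, Elavl3 and Elavl4, and Celf4 and Celf5. These 10 genes were taken by name out of 48709 genes in the count tables, and all 10 passed the filter on low counts. The set was chosen by the measured genotype difference of Nova1 in these same mice, so that genotype differences are given here as a description and without a test. Differences by line and by sex, the interactions of genotype with them and the correlations over mice were tested.

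The proteins bind short motifs in RNA. NOVA proteins bind YCAY motifs, where Y is U or C, through KH domains, and they control alternative splicing of synaptic transcripts. RBFOX proteins bind UGCAUG, and RBFOX3 is the neuronal nuclear antigen NeuN. The neuronal ELAVL proteins, also called Hu proteins, bind U-rich and AU-rich elements and act on stability and splicing of transcripts, and CELF proteins bind U- and G-rich elements. RBFOX2, among others, is also made outside neurons.

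The CYFIP1 OE mice carried a human CYFIP1 bacterial artificial chromosome injected into C57BL/6N pronuclei, and the controls were wild-type (WT) animals on the same background. Each line descends from a single founder. The labels give the lines as 1 and 3, with 8 WT mice (4 males and 4 females, 59 to 61 days old) and 7 CYFIP1 OE mice (3 males and 4 females, 59 to 77 days old) in line 1. Line 3 had 8 WT mice (4 males and 4 females, 58 to 60 days old) and 8 CYFIP1 OE mice (4 males and 4 females, 58 to 64 days old). In line 1, 4 of the CYFIP1 OE mice were 77 days old and no WT mouse was, so that age and genotype were partly confounded there. In that line 7 of 8 WT mice also shared 1 name prefix, which no CYFIP1 OE mouse had, so that prefix and genotype were largely confounded there.

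Left and right BLA punches of a mouse were pooled and sequenced by QuantSeq, which reads the 3′ end of polyadenylated transcripts. Total counts ranged from 5286708 to 8685308 per mouse. Levels are counts scaled to a common library size (CPM) after TMM normalization, with the SD over mice, and they are not divided by gene length because QuantSeq gives about 1 read per transcript. A 3′ end count gives the amount of a gene's transcripts and does not measure which exons they include. Mouse Cyfip1 itself gave a log2 value of -0.02 (standard error 0.08) for CYFIP1 OE against WT mice, which does not check the human transgene because the counts are for mouse genes. A single mouse, CYFIP1 OE replicate 1, a line 3 male, stood apart in overall expression with a connectivity Z-score of -4.74, against -1.18 for the next lowest. The paper left out samples with such a score below -2, and whether this mouse was among them is not given. It was kept here except where stated. Markers of striatal projection neurons, which neighbour the BLA, had summed levels from 184 to 3744 CPM in WT mice and from 201 to 4194 CPM in CYFIP1 OE mice (6 of 7 genes tested, with Drd2 under the filter). Summed markers of excitatory neurons, the main BLA cell type, ranged from 521 to 1785 CPM in WT mice and from 517 to 3565 CPM in CYFIP1 OE mice (6 of 6 genes), the highest value being that of the mouse that stood apart. The general neuron markers ranged from 2641 to 4037 CPM in WT and from 2876 to 4326 CPM in CYFIP1 OE mice (8 of 8 genes). In such bulk tissue, fewer cells of a type and less RNA per cell cannot be told apart.

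Related genes can share reads where their sequences are identical, so the longest runs of identical coding bases were found in the transcripts of the GENCODE annotation of GRCm38. They were 15 bases for Nova1 and Nova2, 14 to 29 bases among the Rbfox genes, 17 to 29 bases among the Elavl genes and 26 bases for Celf4 and Celf5. The longest runs are shown because they bound how long a read must be to tell the genes apart, and each is written 5′ to 3′ in lower case as both genes carry it.
Rbfox1 and Rbfox2: accgtggtagagggccgtaaaatcgaggt
Elavl3 and Elavl4: ttcggcttcgtcaccatgaccaactacga
The Rbfox run of 29 bases spans a splice junction in both genes, at chr16:7292251-7292277 and chr16:7294070-7294071 on the plus strand in Rbfox1 and at chr15:77105577-77105603 and chr15:77102938-77102939 on the minus strand in Rbfox2. The Elavl run lies within 1 exon, at chr9:22018600-22018628 in Elavl3 and at chr4:110206429-110206457 in Elavl4, both on the minus strand. Within the last 500 bases of each annotated coding transcript, the runs shared with the related gene were 13 to 29 bases long. Such annotated ends need not be the polyadenylated ends where QuantSeq reads start. The Rbfox run of 29 bases, counted here, lies far from the annotated end of Rbfox1 at chr16:7411526. A further gene overlapped the last 1000 bases of only 1 of the 10 genes, Nova2, and it was the noncoding gene Gm26821 on the opposite strand. Whether the counting used strand is not given in the sources used here.

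Nova1 (ENSMUSG00000021047) lies at chr12:46694517-46818929 on the minus strand. It had 12.1, 19.2 and 25.4 CPM as the lowest, median and highest values in WT mice, and 18.3, 23.5 and 27.8 CPM in CYFIP1 OE mice. The CYFIP1 OE values lay higher but the ranges overlapped, with 5 CYFIP1 OE mice above the highest WT mouse and 5 WT mice below the lowest CYFIP1 OE mouse. Means were 18.8 ± 3.93 CPM for WT (SD, n = 16) and 23.7 ± 2.86 CPM for CYFIP1 OE (SD, n = 15), and 14 of 15 transgenic mice exceeded the WT mean. This came to a log2 fold change of 0.35 (standard error 0.10). Ordered by the size of its fold change, Nova1 came 2548th of the 17428 tested genes. It was the 1 of the 10 genes with a p under 0.005, which 0.293% of all tested genes had, and this value is the one it was singled out by. By genotype 0 genes passed at an adjusted p under 0.05 by edgeR or by DESeq2, and 750 (4.30%) and 814 of the tested genes had an unadjusted p under 0.05. These levels rested on 105 to 219 reads per mouse, and counting error gave a coefficient of variation of 8.2% in WT mice against the observed 20.9%.

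The direction of the Nova1 difference was alike in both lines. This is no separate support, because the mice of both lines entered the difference that Nova1 was chosen by. In line 1 the lowest, median and highest levels were 12.1, 20.1 and 23.9 CPM in WT and 18.3, 25.7 and 27.8 CPM in CYFIP1 OE mice, and the fold change was 0.31 on the log2 scale (standard error 0.14) when that line was fitted alone. In line 3 they were 12.8, 18.3 and 25.4 CPM in WT and 20.2, 22.9 and 26.5 CPM in CYFIP1 OE mice, and the same fold change was 0.40 (standard error 0.15). The WT mean of the line was exceeded by 6 of 7 CYFIP1 OE mice in line 1 and 8 of 8 in line 3, and the ranges overlapped in each line. The test of the difference between the lines gave 0.09 (standard error 0.20, adjusted p = 0.949 from edgeR). Nova1 was lower in line 3 than in line 1 by a log2 difference of -0.13 (standard error 0.10, adjusted p = 1.00) and lower in females than in males by -0.13 (standard error 0.10, adjusted p = 0.970), and neither passed the test. Its genotype difference, the value Nova1 was chosen by, ranged from 0.31 to 0.41 with each of the 31 mice left out in turn. It was positive in all 31 fits, which describes that difference and adds no support for it. With summed markers of neurons, excitatory neurons and striatal projection neurons as covariates, which were added after the data were seen, it was 0.35 (standard error 0.10).

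Nova2 (chr7:18925888-18965319, plus strand), the other NOVA gene, had 27.0, 35.6 and 48.9 CPM as its lowest, median and highest values in WT mice and 28.2, 35.4 and 52.1 CPM in CYFIP1 OE mice. These ranges covered nearly the same span, and the log2 fold change was 0.03 (standard error 0.10). Its genotype difference was 0.16 (standard error 0.14) in line 1 and -0.09 (standard error 0.15) in line 3, and the difference between the lines did not pass the test (-0.27, standard error 0.20, adjusted p = 0.782). Nova1 made up 34.4 ± 6.81% of the reads of both Nova genes in WT (SD, n = 16) and 39.5 ± 5.90% in CYFIP1 OE (SD, n = 15), which restates the genotype difference of Nova1. The share was 38.0 ± 6.76% in line 1 and 35.8 ± 6.89% in line 3 (adjusted permutation p = 0.716), and 37.4 ± 6.87% in males and 36.4 ± 6.92% in females (adjusted permutation p = 0.878). These permutation tests were two-sided with 100000 resamples, adjusted over 8 tests of 4 shares by line and by sex, and none of the 8 passed.

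**Figure D1:**
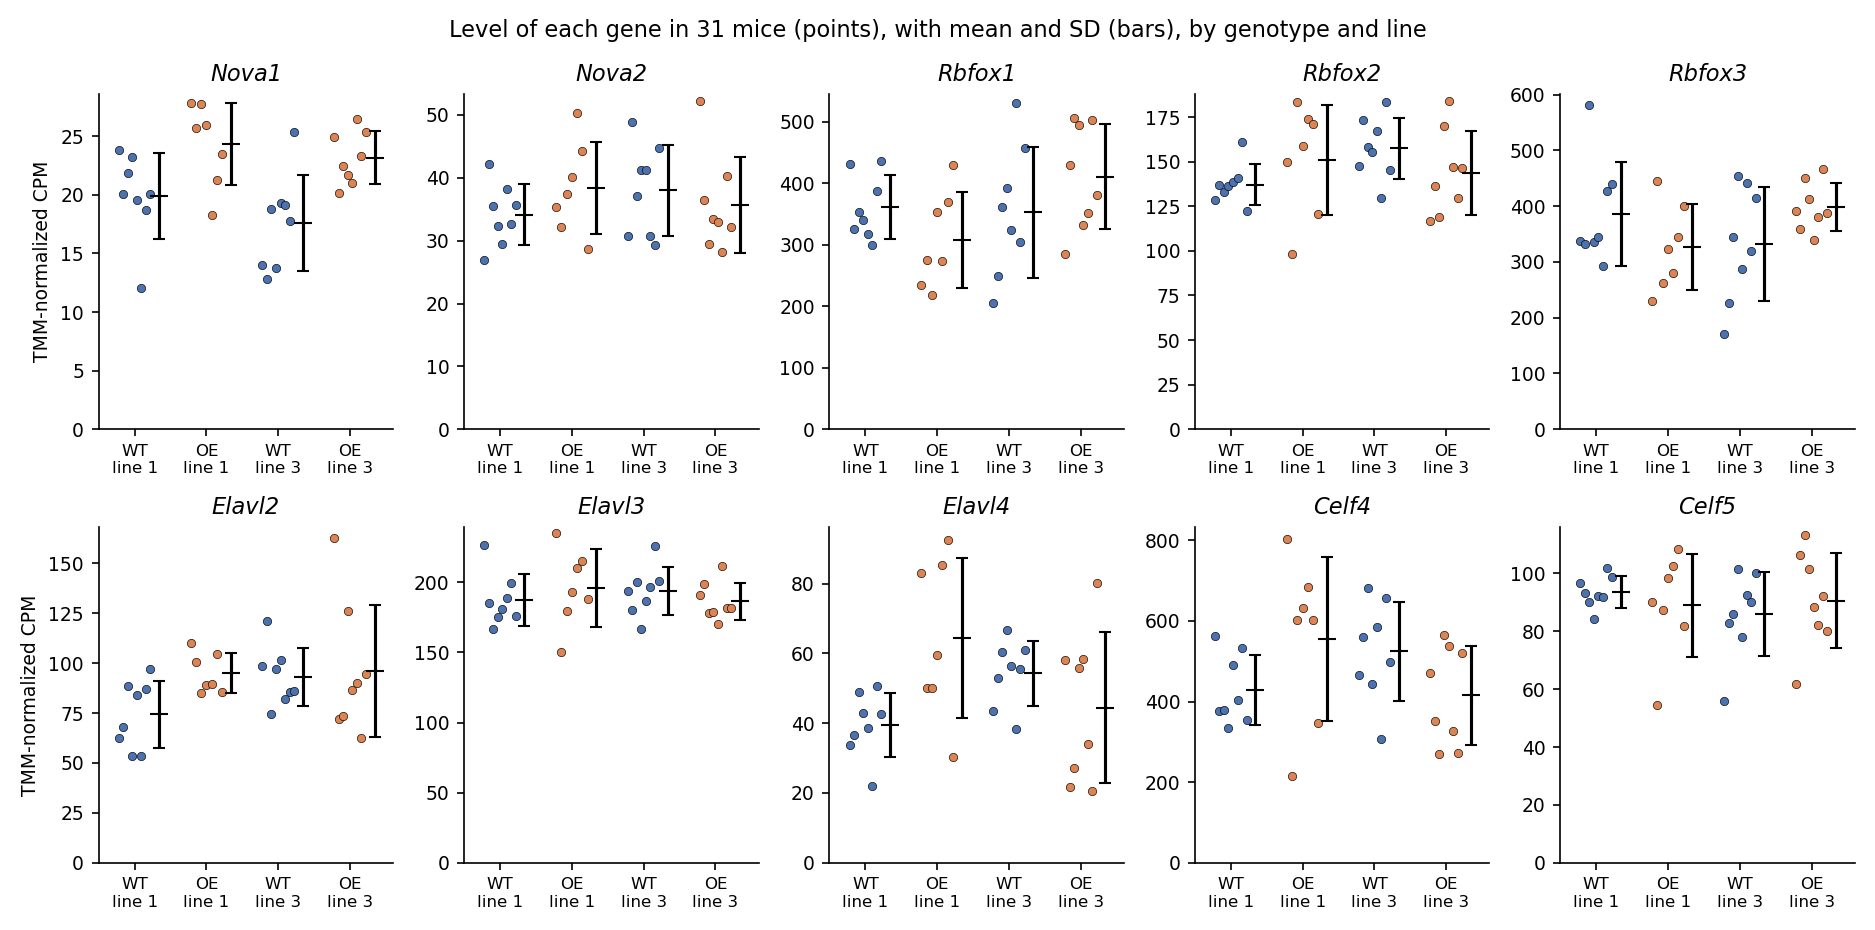
TMM-normalized CPM (vertical axes, from 0) of the 10 genes in each of 31 mice (points), by genotype and line, with OE standing for CYFIP1 OE and black bars for mean and SD. Nova1 lies higher in CYFIP1 OE mice of both lines, with 14 of 15 above the WT mean, while Elavl4 and Celf4 lie higher in CYFIP1 OE mice of line 1 and lower in those of line 3.

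Among the Rbfox genes, Rbfox1 (chr16:5885355-7411526, plus strand) had 206, 347 and 530 CPM as lowest, median and highest values in WT mice and 219, 353 and 507 CPM in CYFIP1 OE mice. Rbfox3 (chr11:118489762-118911597, minus strand) had 170, 341 and 581 CPM in WT and 229, 380 and 467 CPM in CYFIP1 OE mice. Both genes varied widely within each genotype and their ranges overlapped almost fully. Rbfox2 (chr15:77078990-77307004, minus strand) was lower and tighter, with 122, 143 and 184 CPM in WT and 98.1, 147 and 184 CPM in CYFIP1 OE mice. The log2 fold changes by genotype were -0.01 (standard error 0.12) for Rbfox1, -0.002 (standard error 0.09) for Rbfox2 and 0.02 (standard error 0.13) for Rbfox3. Rbfox3 made up 41.0 ± 4.92% of the reads of the 3 genes in WT and 41.7 ± 4.61% in CYFIP1 OE mice.

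Those pooled values near 0 held opposite values within the lines for Rbfox1 and Rbfox3. In line 1 Rbfox1 had a median of 347 CPM in WT and 276 CPM in CYFIP1 OE mice (log2 fold change -0.25, standard error 0.14), and in line 3 a median of 343 CPM in WT and 406 CPM in CYFIP1 OE mice (0.22, standard error 0.18). Rbfox3 behaved likewise, with medians of 341 and 324 CPM in line 1 (-0.26, standard error 0.16) and of 332 and 390 CPM in line 3 (0.27, standard error 0.18). For Rbfox3 the WT mean of the line was exceeded by all 8 CYFIP1 OE mice in line 3 and by 2 of 7 in line 1.

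Of the neuronal Elavl genes, Elavl3 (chr9:22015005-22052023, minus strand) was the steadiest of the 10 genes relative to its mean (190.7 ± 19.0 CPM over 31 mice). Its lowest, median and highest values were 167, 188 and 227 CPM in WT and 150, 188 and 235 CPM in CYFIP1 OE mice. Elavl4 (chr4:110203722-110351909, minus strand) varied most (50.2 ± 18.6 CPM over 31 mice), with 22.1, 46.2 and 66.7 CPM in WT and 20.5, 55.8 and 92.6 CPM in CYFIP1 OE mice. The CYFIP1 OE mice thus spread over the whole WT range of Elavl4 and beyond it, with 4 above the highest WT mouse. Elavl2 (chr4:91250763-91400785, minus strand) had 53.4, 85.8 and 121 CPM in WT and 62.3, 89.5 and 163 CPM in CYFIP1 OE mice. The log2 fold changes by genotype were 0.19 (standard error 0.12) for Elavl2, 0.002 (standard error 0.07) for Elavl3 and 0.19 (standard error 0.19) for Elavl4. Without the mouse that stood apart Elavl2 was at 0.12, and without CYFIP1 OE replicate 7, of line 1, Elavl4 was at 0.12.

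Elavl4 differed most between the lines. In line 1 its lowest, median and highest values were 22.1, 40.6 and 50.7 CPM in WT and 30.3, 59.7 and 92.6 CPM in CYFIP1 OE mice, and 6 of 7 transgenic mice exceeded the WT mean. In line 3 they were 38.4, 55.9 and 66.7 CPM in WT and 20.5, 44.9 and 80.0 CPM in CYFIP1 OE mice, and 4 of 8 transgenic mice exceeded the WT mean. On the log2 scale the fold change was 0.70 (standard error 0.20) in line 1 and -0.29 (standard error 0.24) in line 3. In line 1 it cannot be told apart from a difference between name prefixes. Among 18 mice whose prefixes held both genotypes, mostly of line 3, it was -0.26 (standard error 0.29). Elavl2 had 0.35 (standard error 0.14) in line 1, where 7 of 7 transgenic mice exceeded the WT mean, and 0.04 (standard error 0.17) in line 3, where it was 3 of 8. The line 3 value of Elavl2 includes the mouse that stood apart, which had the highest Elavl2 level, 163 CPM.

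Celf4 (chromosome 18) and Celf5 (chr10:81459227-81482709, minus strand) are the members of the CELF family that the set holds. Celf4 had 306, 478 and 681 CPM as lowest, median and highest values in WT and 215, 522 and 804 CPM in CYFIP1 OE mice, and it made up 83.5 ± 3.94% of the reads of both genes in WT and 83.0 ± 5.59% in CYFIP1 OE mice. Celf5 had 56.0, 92.0 and 102 CPM in WT and 54.6, 89.97 and 113 CPM in CYFIP1 OE mice. Their pooled log2 fold changes by genotype were 0.01 (standard error 0.16) and 0.00 (standard error 0.09). Celf4 again had opposite values within the lines, with medians of 391 CPM in WT and 604 CPM in CYFIP1 OE mice of line 1 (0.36, standard error 0.20) and of 529 and 412 CPM in line 3 (-0.33, standard error 0.19).

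The interaction of genotype with line was tested for all genes. None of the 10 genes passed at an adjusted p under 0.05 by edgeR or by DESeq2, a threshold that 0.0% of all tested genes reached by edgeR. At an unadjusted p under 0.05 there were 4 of 10 by either tool, against 8.10% of all tested genes by edgeR. The 4 were Elavl4 (line 3 minus line 1 -1.00, standard error 0.33, adjusted p = 0.535), Celf4 (-0.70, standard error 0.29, adjusted p = 0.566), Rbfox3 (0.52, standard error 0.24, adjusted p = 0.587) and Rbfox1 (0.47, standard error 0.23, adjusted p = 0.612), all from edgeR. These 4 genes were also among those whose levels followed cell type markers over mice, as given next, but so was every other member except Nova1 and Elavl3. In 4 of 9 marker lists (neurons, excitatory neurons, striatal projection neurons and microglia) the group medians differed by genotype in opposite directions in the lines, which was not tested. The median sum of striatal projection neuron markers was 2329 CPM in WT and 1659 CPM in CYFIP1 OE mice of line 1, and 1462 CPM in WT and 2396 CPM in CYFIP1 OE mice of line 3. The median sum of neuron markers was 3200 and 3591 CPM in line 1, and 3652 and 3353 CPM in line 3. The 3 marker sums were also used as covariates, a step added after the data were seen, and they come from the same libraries as the genes. The interaction was then -0.65 (standard error 0.27) for Elavl4, 0.02 (standard error 0.24) for Celf4, -0.09 (standard error 0.17) for Rbfox3 and -0.04 (standard error 0.16) for Rbfox1, and 1 of 10 genes had an unadjusted p under 0.05 against 3.57% of all tested genes. Without the mice aged 77 days, all of them CYFIP1 OE mice of line 1, 2 of 10 genes did, Celf4 and Elavl4, against 5.36% of all tested genes. Without the mouse that stood apart, 5 of 10 genes did, against 10.4% of all tested genes. The added gene was Elavl2 (-0.46, standard error 0.19, adjusted p = 0.380 from edgeR). Name prefix and, in line 1, age differed between the same groups and cannot be told apart from the makeup of the punch. No cause of these interactions was tested.

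**Figure D2:**
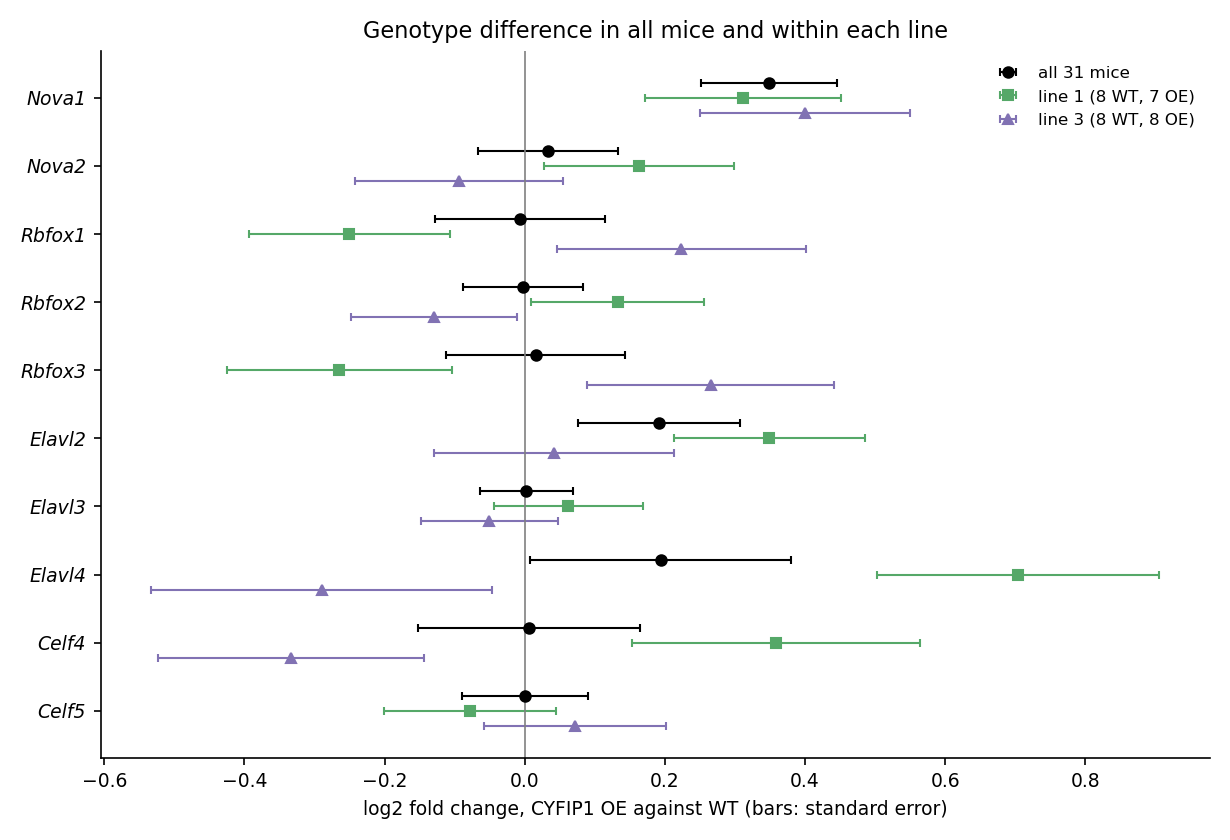
Log2 fold change of CYFIP1 OE against WT (horizontal axis, bars standard errors) of each gene in all 31 mice (black circles), in line 1 alone (green squares) and in line 3 alone (purple triangles). Nova1, chosen by its pooled difference in these same mice, has values of 0.31 and 0.40 in the 2 lines. Every gene other than Nova1 and Elavl2 lies on opposite sides of 0, with the widest separation for Elavl4 (0.70 and -0.29). The line 3 value of Elavl2 (0.04) includes the mouse that stood apart, which had the highest Elavl2 level. The values of Elavl3 and Celf5 in each line are smaller than their standard errors.

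By line, with all mice in the fit, 0 of 10 genes passed at an adjusted p under 0.05 or at an unadjusted p under 0.05, by edgeR or by DESeq2, against 0.0% of all tested genes at the adjusted and 3.31% at the unadjusted threshold by edgeR. The log2 differences of line 3 against line 1 ranged from -0.13 for Nova1 to 0.19 for Rbfox1. Among WT mice alone, 3 of 10 genes had an unadjusted p under 0.05, against 6.07% of all tested genes, and were higher in line 3, Elavl4 by 0.46 (standard error 0.15, adjusted p = 0.743), Elavl2 by 0.33 (standard error 0.14, adjusted p = 0.780) and Rbfox2 by 0.20 (standard error 0.09, adjusted p = 0.811), which did not pass once adjusted. Among CYFIP1 OE mice alone the members with an unadjusted p under 0.05 were Rbfox1 and Rbfox3, against 939 of 17562 tested genes. Rbfox1 was higher in line 3 by 0.43 (standard error 0.17, adjusted p = 0.919) and Rbfox3 by 0.31 (standard error 0.14, adjusted p = 0.919), and neither passed once adjusted. By sex, likewise 0 of 10 passed at either threshold by either tool, where 0.0631% of all tested genes passed at the adjusted and 4.62% at the unadjusted one by edgeR, and the differences of females against males ranged from -0.20 for Elavl4 to 0.17 for Rbfox1. The interaction of genotype with sex passed for 0 of 10 genes at either threshold and by either tool, and for 0.0% of all tested genes at the adjusted and 6.39% at the unadjusted one by edgeR.

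Ordered by mean level over the 4 groups of genotype and line, 9 of the 10 genes had neighbours in that order that differed by less than the larger of their SDs at each step. For Nova1 the order was WT line 3 (17.6 ± 4.09 CPM), WT line 1 (19.9 ± 3.65 CPM), CYFIP1 OE line 3 (23.2 ± 2.24 CPM) and CYFIP1 OE line 1 (24.3 ± 3.52 CPM). The exception was Elavl2, at 74.3 ± 17.0 CPM in WT line 1 and 93.2 ± 14.5 CPM in WT line 3, a step larger than either SD. Its other groups, at 94.9 ± 10.1 CPM in CYFIP1 OE line 1 and 96.0 ± 33.1 CPM in CYFIP1 OE line 3, had means close to WT line 3. The CYFIP1 OE line 3 group held the mouse that stood apart, at 163 CPM, and the median of the group was 88.3 CPM. The place of this group in the order, and with it the step, may depend on that mouse. The order without that mouse was not worked out.

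The 10 genes were next compared over mice after sex, line and genotype had been removed from log2 CPM. All values of a mouse come from 1 library, so that depth, RNA quality and the makeup of the punch are shared. Of 45 pairs, 9 passed at an adjusted p under 0.05 in a two-sided permutation test of Pearson's r, 7 with a positive and 2 with a negative value. Rbfox2 and Celf4 (r = 0.80, rho = 0.80) and Rbfox1 and Rbfox3 (r = 0.77, rho = 0.73) were the closest pairs, each with an adjusted permutation p of 0.000225. Elavl4 went with Celf4 (r = 0.67, rho = 0.72, adjusted permutation p = 0.000675), Elavl2 (r = 0.64, rho = 0.55, adjusted permutation p = 0.000675) and Rbfox2 (r = 0.52, rho = 0.59, adjusted permutation p = 0.0183). Rbfox1 went with Celf5 (r = 0.58, rho = 0.57, adjusted permutation p = 0.00576), and Rbfox3 went against Celf4 (r = -0.52, rho = -0.59, adjusted permutation p = 0.0170) and Rbfox2 (r = -0.48, rho = -0.60, adjusted permutation p = 0.0304). The other pair was Elavl3 and Celf4 (r = 0.54, rho = 0.48, adjusted permutation p = 0.0120), for which r was 0.82 in line 1 and -0.01 in line 3, and 0.36 without the 2 mice farthest from the median.

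Within the lines, r was 0.81 and 0.73 for Rbfox2 and Celf4 in lines 1 and 3, and 0.51 and 0.87 for Rbfox1 and Rbfox3. Without the 2 farthest mice these pairs had r of 0.76 and 0.65. Elavl4 had r of 0.43 and 0.78 with Celf4 and of 0.62 and 0.60 with Elavl2 in lines 1 and 3, and of 0.63 and 0.62 without the 2 farthest mice. Rbfox3 had -0.57 and -0.32 with Celf4 and -0.48 and -0.34 with Rbfox2, and -0.62 and -0.43 without those mice. The Rbfox family therefore divided, since Rbfox1 and Rbfox3 went together while Rbfox2 had r of -0.35 (adjusted permutation p = 0.138) with Rbfox1. Rbfox1 and Celf5 had r of 0.26 in line 1 and 0.80 in line 3, and Rbfox2 and Elavl4 0.40 and 0.49, and without the 2 farthest mice these were 0.47 and 0.64. In WT and CYFIP1 OE mice r was 0.27 and 0.71 for Elavl4 and Celf4. Rbfox3 had -0.24 and -0.78 with Celf4, and -0.27 and -0.68 with Rbfox2. Rbfox1 had 0.81 and 0.58 with Rbfox3, and 0.77 and 0.45 with Celf5. The other pairs had 0.69 and 0.80 (Rbfox2, Celf4), 0.52 and 0.64 (Elavl2, Elavl4), 0.33 and 0.46 (Rbfox2, Elavl4), and 0.53 and 0.49 (Elavl3, Celf4). These splits were not tested.

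Nova1 passed with none of the other 9 genes. Its largest values were with Rbfox3 (r = 0.41, rho = 0.31, adjusted permutation p = 0.112) and Rbfox1 (r = 0.38, rho = 0.23, adjusted permutation p = 0.126), the 2 of 9 with an unadjusted permutation p under 0.05. With Nova2 it was -0.31 (rho = -0.33, adjusted permutation p = 0.175), at -0.64 in line 1 and -0.02 in line 3. Over all 8448 genes with a mean of at least 10 CPM, the genes most like Nova1 by this r over 31 mice were 9930021J03Rik (0.65), Ccdc88a (0.63), which encodes the actin-binding protein girdin, the mitochondrial gene mt-Nd6 (0.60), Xrn2 (0.60), a nuclear exoribonuclease, and Esf1 (0.60), a nucleolar protein. The lowest were Polr2a (-0.69), the largest subunit of RNA polymerase II, Ckap5 (-0.65), a microtubule-binding protein, and Emb (-0.62), a membrane glycoprotein. These values are a ranking over many genes and carry no test.

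All 10 genes were also set against the summed levels of 9 lists of cell type markers, a step extended from Nova1 to all 10 genes after the data were seen. Of 90 relations, 27 passed at an adjusted p under 0.05, 11 of them positive. Rbfox1 followed the markers of striatal projection neurons (r = 0.83, rho = 0.83, adjusted permutation p = 0.000225), and so did Rbfox3 (r = 0.68, rho = 0.64, adjusted permutation p = 0.000386). The lines gave 0.74 and 0.83 for Rbfox1 and 0.69 and 0.61 for Rbfox3, and without the 2 farthest mice r was 0.79 and 0.70.

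Elavl4 and Celf4 instead followed the general neuron markers, with r of 0.81 (rho = 0.76) and 0.73 (rho = 0.74), each with an adjusted permutation p of 0.000225. Elavl2 (r = 0.60, rho = 0.57, adjusted permutation p = 0.00367) and Rbfox2 (r = 0.58, rho = 0.58, adjusted permutation p = 0.00399) did so too. The lines gave 0.82 and 0.81 for Elavl4, 0.67 and 0.73 for Celf4, 0.49 and 0.70 for Elavl2, and 0.67 and 0.35 for Rbfox2, and without the 2 farthest mice r was 0.76, 0.68, 0.50 and 0.56. With excitatory neuron markers r was 0.67 for Elavl2 (rho = 0.63, adjusted permutation p = 0.000400), 0.66 for Elavl4 (rho = 0.73, adjusted permutation p = 0.000450), 0.57 for Nova2 (rho = 0.48, adjusted permutation p = 0.00440) and 0.52 for Celf4 (rho = 0.59, adjusted permutation p = 0.00929). Without the 2 farthest mice these were 0.56, 0.62, 0.39 and 0.46, and for Nova2 the WT mice gave 0.19 and the CYFIP1 OE mice 0.77. With striatal markers the same 4 genes had negative values, -0.62 for Elavl2 (rho = -0.57, adjusted permutation p = 0.000982), -0.49 for Elavl4 (rho = -0.57, adjusted permutation p = 0.0179), -0.49 for Nova2 (rho = -0.41, adjusted permutation p = 0.0171) and -0.56 for Celf4 (rho = -0.65, adjusted permutation p = 0.00540). Without the 2 farthest mice they were -0.49, -0.40, -0.31 and -0.55, and the rho of Nova2 did not pass (adjusted permutation p = 0.0623). For Elavl2 r was -0.09 in line 1 and -0.78 in line 3, and for Elavl4 the WT mice gave 0.04 and the CYFIP1 OE mice -0.54.

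Markers of GABAergic neurons and of oligodendrocytes gave negative values as well. With GABAergic markers r was -0.69 for Elavl2 (rho = -0.65, adjusted permutation p = 0.000400), -0.68 for Nova2 (rho = -0.57, adjusted permutation p = 0.000386) and -0.57 for Elavl4 (rho = -0.62, adjusted permutation p = 0.00434). The lines gave -0.45 and -0.81 for Elavl2, -0.63 and -0.70 for Nova2, and -0.65 and -0.53 for Elavl4, and without the 2 farthest mice r was -0.61, -0.58 and -0.52. With oligodendrocyte markers r was -0.63 for Nova2 (rho = -0.61, adjusted permutation p = 0.00172), -0.58 for Elavl4 (rho = -0.62, adjusted permutation p = 0.00399) and -0.49 for Celf4 (rho = -0.51, adjusted permutation p = 0.0213). Without the 2 farthest mice these were -0.52, -0.66 and -0.51.

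Rbfox2 had its largest value with microglia markers, and it was negative (r = -0.75, rho = -0.71, adjusted permutation p = 0.000225), at -0.82 in line 1, -0.58 in line 3 and -0.70 without the 2 farthest mice. The WT mice gave -0.35 and the CYFIP1 OE mice -0.82. Celf4 was negative with the same markers (r = -0.53, rho = -0.60, adjusted permutation p = 0.00831), but at -0.75 in line 1 and -0.11 in line 3. For Celf4 the WT mice gave -0.22 and the CYFIP1 OE mice -0.55. Celf5 was negative with them too (r = -0.48, adjusted permutation p = 0.0308), at -0.85 in line 1 and -0.17 in line 3. The rho of Celf5, -0.25, did not pass (adjusted permutation p = 0.309). Rbfox3 had a positive value with microglia markers (r = 0.55, rho = 0.66, adjusted permutation p = 0.00747), at 0.64 in line 1 and 0.38 in line 3. Rbfox3 had r of -0.70 with astrocyte markers (rho = -0.70, adjusted permutation p = 0.000360), at -0.80 in line 1, -0.70 in line 3 and -0.64 without the 2 farthest mice. Rbfox1 was negative with astrocyte markers too (r = -0.58, rho = -0.54, adjusted permutation p = 0.00392), at -0.356 in line 1 and -0.775 in line 3. With central amygdala markers Rbfox1 had r of -0.48 (rho = -0.56, adjusted permutation p = 0.0213), at -0.595 in line 1 and -0.342 in line 3. Nova1 passed with 0 of 9 lists by the permutation test, and no unadjusted p was under 0.05 either, with r between -0.30 for astrocytes and 0.31 for microglia. Elavl3 passed with 0 of 9 lists as well, and with 1 of 9 without the mouse that stood apart. Without that mouse 34 of the 90 relations passed, 9 of which had not passed in all mice, and 2 of the 27 were lost. Rbfox2 then had 0.65 with excitatory neuron markers (adjusted permutation p = 0.000900), against 0.32 in all mice, and -0.56 with striatal markers (adjusted permutation p = 0.00462), against -0.35. Nova2 had -0.60 with microglia markers (adjusted permutation p = 0.00253), against -0.24. The 2 lost were Nova2 with striatal markers (-0.40, adjusted permutation p = 0.0732) and Celf5 with microglia markers (-0.36, adjusted permutation p = 0.117).

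**Figure D3:**
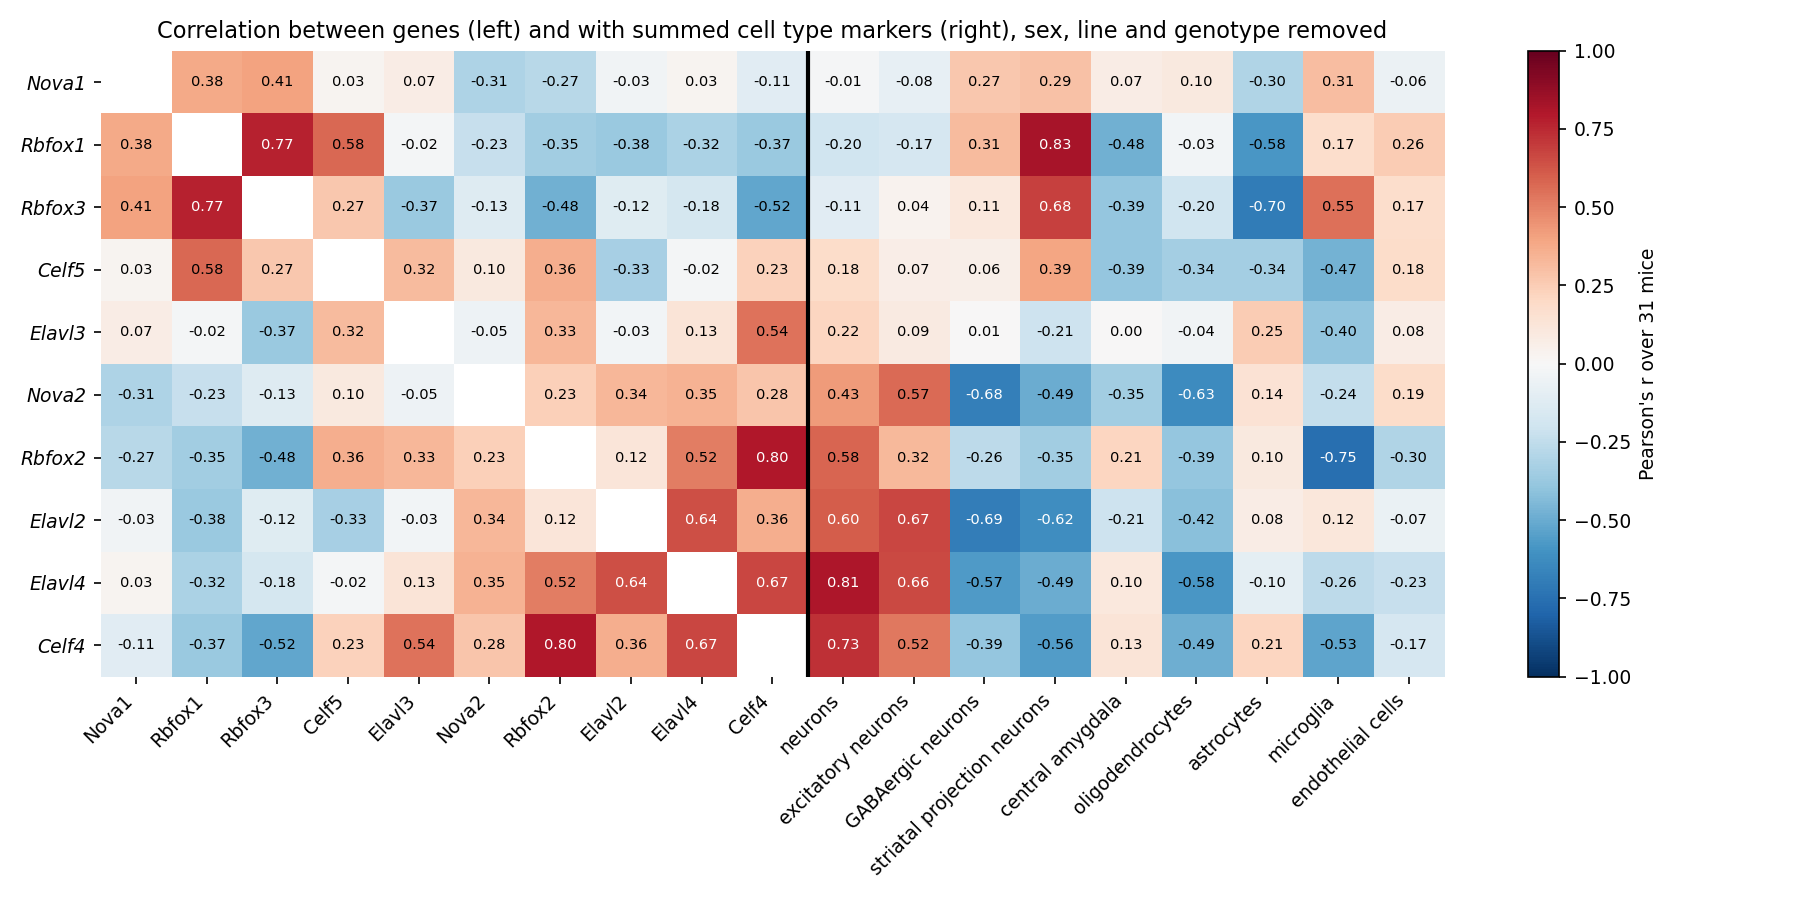
Pearson's r over 31 mice between the 10 genes (left of the black line) and between each gene and the summed level of 9 marker lists (right), with sex, line and genotype removed. Rbfox1 and Rbfox3 form 1 block with striatal markers (0.83 and 0.68), Rbfox2, Elavl4 and Celf4 another with neuron markers (0.58 to 0.81), and Nova1 has no value beyond 0.41.

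**Figure D4:**
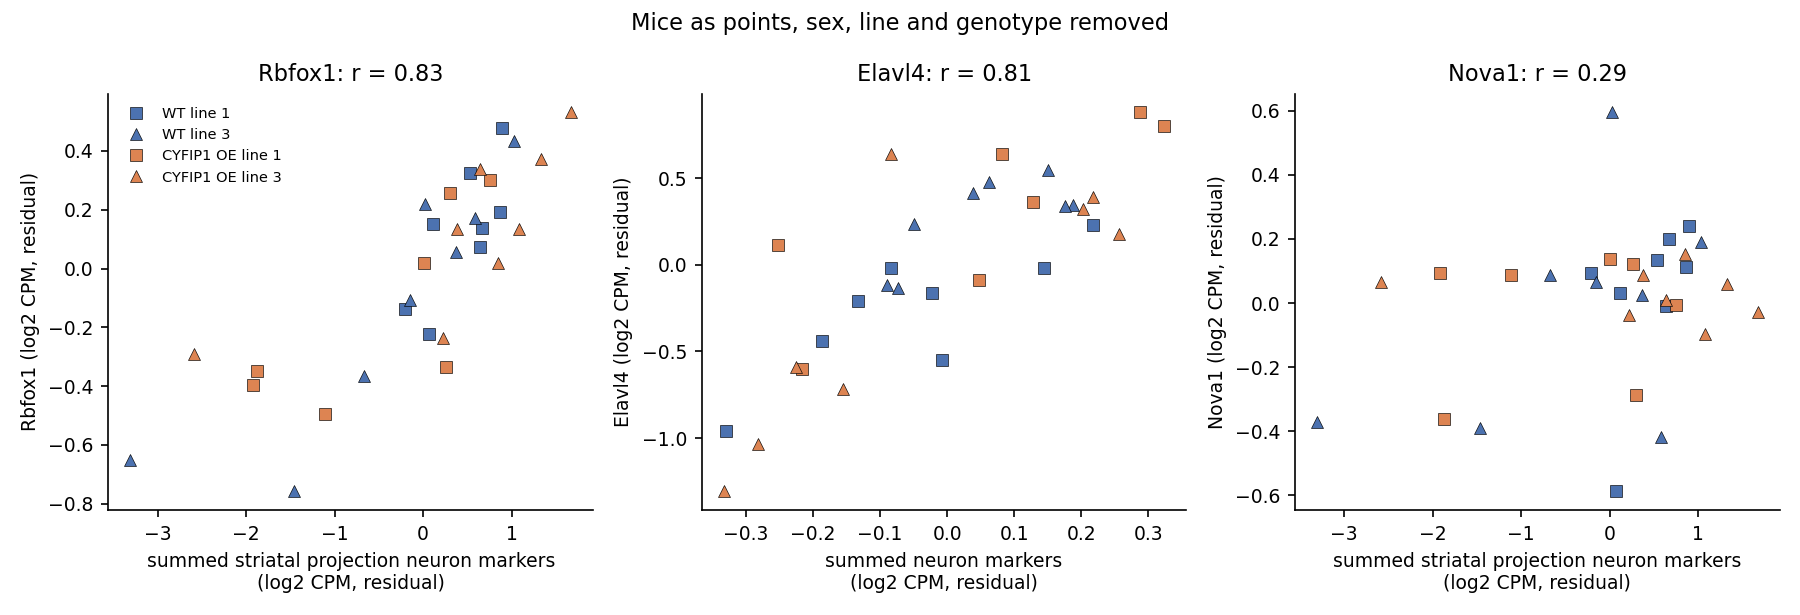
Residual log2 CPM of Rbfox1, Elavl4 and Nova1 (vertical axes) against the residual log2 summed CPM of marker genes (horizontal axes) in 31 mice, coloured by genotype and shaped by line. Rbfox1 climbs with striatal markers (r = 0.83) and Elavl4 with neuron markers (r = 0.81), while Nova1 spreads widely at each striatal level (r = 0.29).

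A list of 46 other splicing regulators gave the setting for the 10 genes, and 45 of them passed the filter. By genotype 17 were higher and 28 lower in CYFIP1 OE mice, and the median log2 fold change was -0.012, beside -0.005 over all 17428 tested genes. The values ran from -0.28 (standard error 0.18) for Srsf4, a serine- and arginine-rich splicing factor with 19.4 ± 5.78 CPM in WT and 15.9 ± 5.71 CPM in CYFIP1 OE mice, to 0.31 (standard error 0.19) for Celf6, with 10.6 ± 3.37 CPM and 13.3 ± 6.66 CPM. The 10 genes had 8 higher and 2 lower, with a median of 0.011, where 48.7% of all tested genes were higher. Nova1 was among the 8 by choice, and Nova2, Rbfox3, Elavl3, Celf4 and Celf5 were higher by less than their standard errors. By line and by sex none of the 45 passed at an adjusted p under 0.05 from edgeR, and 1 and 5 had an unadjusted p under 0.05, against 3.31% and 4.62% of all tested genes. Their extremes were Celf6 (-0.21, standard error 0.19) and Rbm4 (0.26, standard error 0.28) by line, and Srrm4 (-0.41, standard error 0.22), which controls neuronal microexons, and Mbnl1 (0.27, standard error 0.15) by sex. In the interaction of genotype with line and with sex none passed after adjustment, and 3 and 5 of 45 had an unadjusted p under 0.05, against 8.10% and 6.39% of all tested genes.

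Transcripts that NOVA proteins are known to act on were listed as well, among them Glra2, Agrn, Dab1, Kcnj6, Cacna1b, Mapk9 and Neo1, and 8 of 8 passed the filter. By genotype 4 were higher and 4 lower, with a median log2 fold change of -0.009. Kcnj6, a potassium channel gene near the detection limit at 1.21 ± 1.15 CPM in WT and 0.895 ± 1.09 CPM in CYFIP1 OE mice, was lowest at -0.46 (standard error 0.72). None of the 8 passed by line, by sex or in either interaction at an adjusted p under 0.05 from edgeR, and 1, 1, 2 and 0 had an unadjusted p under 0.05, against 3.31%, 4.62%, 8.10% and 6.39% of all tested genes. By line the extremes were Glra2 (-0.27, standard error 0.23) and Kcnj6 (0.24, standard error 0.72), and by sex Glra2 (-0.42, standard error 0.23) and Mapk9 (0.10, standard error 0.08).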

How the data were processed

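The authors deposited estimated counts, 1 table per mouse with decimals and without normalization, made from QuantSeq 3′ reads by STAR alignment to GRCm38 and Salmon quantification. Versions are not given in the sources used here. Each mouse was 1 replicate, and p-values measure the spread between mice. Estimated counts were rounded, and a gene was tested if 20% of mice or more had 10 or more reads (17428 genes). edgeR 4.0.16 in R 4.3.3 (TMM, quasi-likelihood test, sex, line and genotype as terms, Benjamini-Hochberg adjustment over all tested genes) was the main test, with interaction terms added in turn. The authors' DESeq2 model held 5 sequencing principal components, for which 5 surrogate variables from sva 3.50.0 stood in as an alternative. DESeq2 1.42.0, RLE size factors, other filters, age as a covariate and subsets of mice were further alternatives. Correlations used log2 CPM (prior count 2) and two-sided permutation tests with 100000 resamples (numpy 2.4.6, scipy 1.17.1, pandas 2.3.3), whose smallest p is 1e-05. They were adjusted over 45 pairs, 90 marker relations or 8 share tests. Gene positions and sequences came from the GENCODE annotation of GRCm38, which named 48349 of 48709 genes.

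The members and gene lists were chosen with earlier results of these data known. Besides the 10 members, the text names the genes of the other lists with an adjusted p under 0.05 in a tested contrast (there were none), the highest and lowest of each list by genotype, line and sex, apart from 1 gene that is not reported here, and the 5 genes most and 3 least like Nova1. Marker sums as covariates, each mouse left out in turn and the marker relations of genes other than Nova1 were added after the data were seen. Tested on counts simulated with 200 genes changed by a log2 fold change of 1, edgeR recovered 149 by genotype with 5 false calls, 143 by line with 10 and 142 by sex with 5, among 16973, 16958 and 16955 genes. That change is larger than the genotype difference of Nova1 over all mice (0.35), and the genes were simulated independently of each other. The check therefore does not measure how often differences of that smaller size are found. The depth of 5286708 to 8685308 counts per mouse limits genes with few reads.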

Additional observations from a re-analysis of the deposited data

Results flagged for a closer look

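Of 56 groups of 7 or 8 mice, 4 held a mouse far from the others by Dixon's test, where about 2.8 are flagged by chance. In WT mice of line 1, a female had 12.1 CPM of Nova1, against 18.7 CPM in the next mouse, and without it the genotype difference of Nova1 was 0.31. The share of Rbfox3 among the reads of the Rbfox genes was high in 1 mouse in each of 3 groups. It was 54.4% in a WT male of line 1 (the next was 44.0%), 54.3% in a CYFIP1 OE female of line 1 aged 77 days (the next was 42.1%) and 49.4% in the CYFIP1 OE male of line 3 that stood apart in connectivity (the next was 43.2%).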

How the results depend on the processing

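The number of the 10 genes with an adjusted p under 0.05 was 0 by line, by sex and in both interactions under all alternatives run. Of 219 values recomputed under alternatives, 213 kept their direction or moved by less than the spread between mice. The difference of line 3 against line 1 in the share of Celf4 was -0.18 percentage points, and 0.47 without the mice aged 77 days. The difference of females against males in the share of Rbfox3 was -0.38 percentage points, and 0.19 without the mouse that stood apart. None of these values passed a test, and the cause was not tested. By genotype, Elavl4 had a log2 fold change of 0.70 in line 1 alone, -0.29 in line 3 alone and -0.26 among 18 mice whose name prefixes held both genotypes, and Celf4 had 0.36 in line 1 alone. Nova1 ranged from 0.27 with 5 surrogate variables to 0.40 in line 3 alone, positive in 12 of 12 settings, and from 0.31 to 0.41 with each mouse left out. These fits share mice with the one that Nova1 was chosen by, so they describe its difference and add no support.

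The number of genes with an unadjusted p under 0.005 by genotype was 51, and 366 without the filter on low counts, 81 with DESeq2, 108 with 5 surrogate variables, 80 or 111 in a single line and 412 with 3 marker sums as covariates. For the interaction of genotype with line, 1412 genes had an unadjusted p under 0.05, and 3123 without the filter, 940 without the mice aged 77 days and 622 both with 5 surrogate variables and with the marker sums. The members counted there were 4 of 10, 0 with 5 surrogate variables, 1 with the marker sums, 2 without the mice aged 77 days or with age as a covariate and 5 without the mouse that stood apart, where Elavl2 was added. By line, 0 genes passed after adjustment, and 2 without the filter. By sex, 11 did, and 4 when 10 reads were required in every mouse and 5 to 7 in subsets of mice by name prefix, line or genotype. In the interactions with line and with sex, 0 did in either by edgeR, 2 in each by DESeq2, and 2 in that with line without the filter. No paired analysis by replicate number was possible because the numbers follow accession order and pair no mice. With the name prefix as a term in place of line, in the 18 mice whose prefixes held both genotypes, Nova1 was at 0.31 (standard error 0.15). Nova1 rested on 105 to 219 reads per mouse, which limits smaller differences than those given.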
